A study of Mus musculus with 4 samples.

Results

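Transcript levels of 10 pluripotency factors were followed in mouse embryos around the end of gastrulation, in the presence and absence of Ddx6. The genes were Nanog, Pou5f1, Sox2, Utf1, Sall4, Dppa4, Esrrb, Klf4, Zscan10 and Lincenc1, chosen by name among the 24421 genes of the count table. No rule on their values was used, but earlier results of these data were known when they were chosen. Their counts set beside shares of all genes are therefore descriptive. All 10 had at least 10 reads in at least 1 library, which was the minimum for a gene to be kept, and 14393 genes of the table passed it.

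Pluripotency is the capacity of early embryonic cells to form every lineage of the body. OCT4, the product of Pou5f1, and SOX2 bind DNA side by side on joined motifs and hold the network together with NANOG. The naive cells of the blastocyst use a larger set of factors that includes Esrrb and Klf4, whereas the epiblast after implantation keeps Pou5f1, Sox2 and Utf1 and takes up genes such as Fgf5 and Otx2. Pou5f1 and Nanog are shut off in somatic cells as gastrulation ends, and Sox2 persists in the neural plate.

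Polyadenylated RNA of whole ICR embryos was sequenced in 4 libraries. Wild-type embryos gave 1 library from embryonic day 7.5 (E7.5 WT) and 1 from embryonic day 8.5 (E8.5 WT), and Ddx6 -/- embryos of embryonic day 8.5 gave 2 (KO1 and KO2). Ddx6 encodes an RNA helicase of mRNA decay and translational repression, and per the methods its exon 5 was deleted throughout the embryo. KO1 mixed an embryo younger than the head-fold stage with an embryo that had a head-fold, whereas KO2 held only embryos of the younger kind. The KO libraries therefore differed in morphological stage as well as in sample, and each is given by itself.

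The sequence next to the start of Nanog and Pou5f1 is shown because both genes were among those higher in KO2 than in KO1 and factors of the same network are known to act there. The 250 bases before the start were taken from RefSeq (GRCm38.p6), which gave a promoter for 8 of the 10 genes (all but Sall4 and Dppa4), 11 promoters in all. Capitals mark the composite Oct-Sox motif (TTGCAT, any 1 base, ACAA) and AGGTCA, the hexamer bound by many nuclear receptors, each searched on both strands. The Nanog stretch is chr6:122707239-122707488 and the Pou5f1 stretch is chr17:35505782-35506031, both on the plus strand and written 5′ to 3′.
Nanog: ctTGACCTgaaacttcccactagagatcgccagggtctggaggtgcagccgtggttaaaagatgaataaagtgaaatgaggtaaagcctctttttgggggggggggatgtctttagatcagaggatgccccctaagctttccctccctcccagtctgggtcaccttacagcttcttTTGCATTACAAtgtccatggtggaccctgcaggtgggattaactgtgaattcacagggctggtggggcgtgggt
Pou5f1: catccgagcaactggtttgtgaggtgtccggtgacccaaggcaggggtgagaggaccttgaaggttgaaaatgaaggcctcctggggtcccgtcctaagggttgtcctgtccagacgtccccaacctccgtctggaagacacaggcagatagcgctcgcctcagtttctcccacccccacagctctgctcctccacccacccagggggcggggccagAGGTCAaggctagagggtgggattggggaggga
Nanog held the Oct-Sox motif on the plus strand, from 74 to 64 bases before the start, and AGGTCA on the minus strand, from 248 to 243 bases before it. Of 32851 promoters of this length, 47 (0.143%) held the Oct-Sox motif. Among the promoters of these genes it was in Nanog alone, where the window of another start, at 122707565, held the same motif. Pou5f1 held AGGTCA on the plus strand, from 33 to 28 bases before the start, and 14% of all promoters held that hexamer. Such a match is a description of the letters and not a measured site.

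The genes lie on 9 chromosomes and all but Lincenc1 code for protein. Nanog spans 122707489 to 122714633 on chromosome 6 and Pou5f1 spans 35506018 to 35510772 on chromosome 17 in the GENCODE annotation of GRCm38. Utf1 spans 139943789 to 139945112 on chromosome 7, and Sox2, which has a single exon, spans 34650405 to 34652461 on chromosome 3. Lincenc1, a long noncoding RNA listed as Lncenc1 in RefSeq, spans 97434970 to 97497007 on chromosome 13. A gene on the opposite strand covered 317 exon bases of Pou5f1 and 526 of Sall4, and reads were counted by strand. Nanog has processed pseudogenes elsewhere in the genome, so its count is uncertain to the extent that reads were shared with them.

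KO1 had the fewest reads in all (8198402) and E8.5 WT the most (12562640). Ddx6 itself had 2943 reads in WT at E7.5, 5715 in WT at E8.5, 706 in KO1 and 929 in KO2, so both KO libraries were below both wild-type libraries. Levels are given as reads and as CPM, which are reads scaled to a common library total with trimmed mean of M-values factors, and log2 changes are differences of log2 CPM with a prior count of 2. Calls required a log2 change above 1 or below -1. Each wild-type stage had 1 library, so these calls carry no test, and intervals (95%, exact binomial) cover counting error only. In whole embryos, fewer cells that express a gene and less RNA in each cell cannot be told apart.

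**Figure D1:**
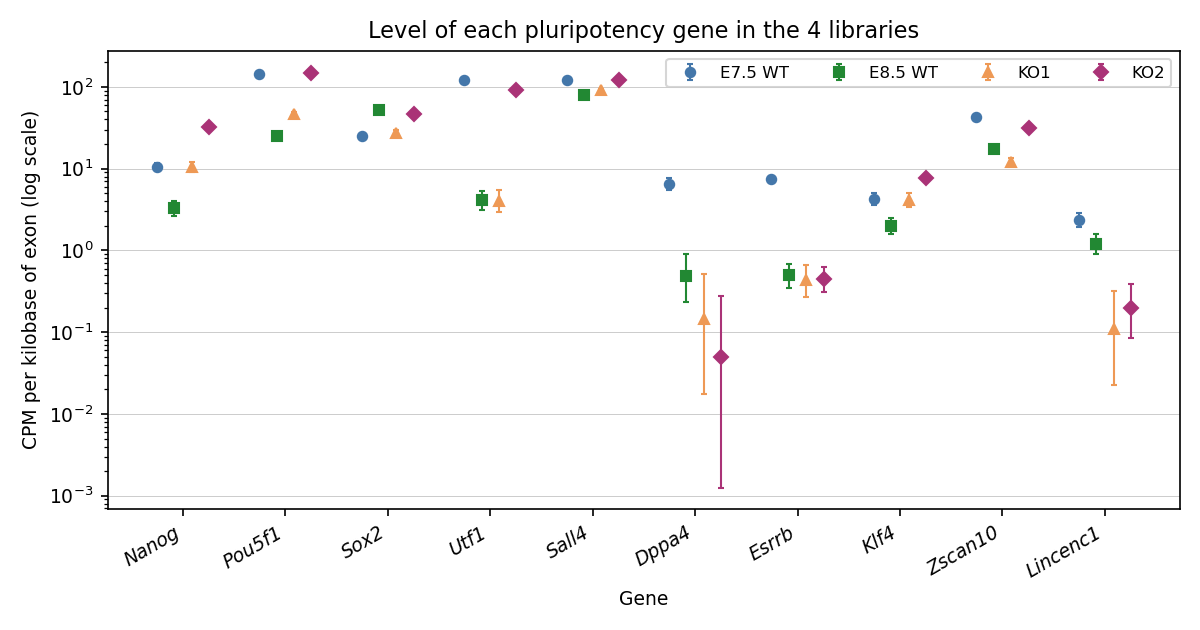
Each marker is the level of a gene in a library, as CPM per kilobase of exon on a log scale, with its exact Poisson 95% counting interval. KO2 is close to E7.5 WT for Pou5f1, Utf1 and Sall4 and above it for Nanog. Dppa4, Esrrb and Lincenc1 are low in both KO libraries, with Esrrb at the level of E8.5 WT.

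Between the wild-type stages, 7 of the 10 genes were higher at E7.5 than at E8.5 by more than 1 on the log2 scale (Nanog, Pou5f1, Utf1, Dppa4, Esrrb, Klf4 and Zscan10), where 7.82% of all genes kept were called. Utf1, a chromatin factor of pluripotent cells, stood 29.6-fold higher at E7.5 (95% interval of the log2 ratio 4.52 to 5.28). Esrrb, an orphan nuclear receptor, was 14.9-fold higher, and Pou5f1 was 5.65-fold higher. Sox2 went the other way, with a log2 change of -1.07 from E8.5 to E7.5, and was the only one called below (12.2% of all genes). Sall4, a zinc finger factor that is also used in the limb and heart, differed by 0.59 and Lincenc1 by 0.94, both inside the threshold. The median change of the 10 genes was 1.45, against 0.02 for all genes kept.

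Per kilobase of exon, the most abundant of the genes at E7.5 were Pou5f1 (142 CPM per kilobase), Utf1 (122) and Sall4 (120), with the intervals of Utf1 and Sall4 overlapping. They were followed by Zscan10 (42.4), Sox2 (24.8) and Nanog (10.4), and then by Esrrb (7.40) and Dppa4 (6.53), whose intervals overlapped, Klf4 (4.25) and Lincenc1 (2.37). At E8.5 the order was Sall4 (80.3), Sox2 (52.3), Pou5f1 (25.1) and Zscan10 (17.6), with the remaining genes between 0.490 and 4.11. In KO1 the order was headed by Sall4 (90.3), Pou5f1 (45.9) and Sox2 (27.4), and in KO2 by Pou5f1 (149), Sall4 (123) and Utf1 (91.0). Each wild-type order rests on 1 library, so neighbours in it cannot be set against a spread between embryos. Lengths joined all GENCODE exons of a gene, whereas per the methods reads were counted over the UCSC mm10 annotation. Annotations can differ, as for Sox2, which starts at 34649995 in RefSeq and at 34650405 in GENCODE. Levels per kilobase are therefore approximate, and their intervals do not cover this.

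Nanog encodes the homeodomain factor that stabilizes the pluripotent state. It had 278 reads in WT at E7.5, 91 in WT at E8.5, 197 in KO1 and 882 in KO2. Both KO libraries lay above E8.5 WT, and KO2 lay above every other library. Against E8.5 WT the level was 3.17-fold in KO1 (interval of the log2 ratio 1.30 to 2.04) and 9.78-fold in KO2 (2.98 to 3.62), a mean log2 change of 2.45 ± 1.14 (SD, n = 2). KO1 matched the level of E7.5 WT (log2 change 0.01), whereas KO2 was 3.10-fold above it. Of the 10 genes, Nanog alone was called above E7.5 WT in KO2, a share close to that of all genes (10.9%).

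Pou5f1 encodes OCT4. It had 3790 reads in WT at E7.5, 693 in WT at E8.5, 867 in KO1 and 4085 in KO2. KO2 was level with E7.5 WT (105% of it), while KO1 was nearer to E8.5 WT. Against E8.5 WT the log2 change was 0.87 in KO1, under the threshold, and 2.57 in KO2, with a mean of 1.72 ± 1.20 (SD, n = 2). Its level in KO2 was 3.25-fold that in KO1.

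Sox2 encodes the partner of OCT4. It had 607 reads in WT at E7.5, 1322 in WT at E8.5, 473 in KO1 and 1174 in KO2. The highest level was in E8.5 WT, KO2 followed, and KO1 was close to E7.5 WT. Against E8.5 WT the log2 changes were -0.93 (KO1) and -0.16 (KO2), so neither library was called.

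Utf1 gave the widest split. It had 1778 reads in WT at E7.5, 62 in WT at E8.5, 42 in KO1 and 1361 in KO2. KO1 was at the E8.5 WT level (99.1% of it) and KO2 at 74.7% of the E7.5 WT level. KO2 was 22.3-fold above KO1 (interval of the log2 ratio 4.04 to 4.96), so their mean log2 difference from E8.5 WT, 2.20 ± 3.13 (SD, n = 2), describes neither library.

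Sall4 and Zscan10 encode zinc finger proteins that act with OCT4 and SOX2 in embryonic stem cells. Sall4 had 7934 reads in WT at E7.5, 5464 in WT at E8.5, 4198 in KO1 and 8278 in KO2, and its levels were within 1.53-fold of E8.5 WT in both KO libraries. Zscan10 had 1439 reads in WT at E7.5, 617 in WT at E8.5, 291 in KO1 and 1097 in KO2. Zscan10 lay below E8.5 WT in KO1 (log2 change -0.53) and above it in KO2 (0.84), and neither change passed the threshold. KO2 exceeded KO1 by 1.37 for Zscan10 and by 0.44 for Sall4 on the log2 scale.

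Klf4 and Esrrb, both factors of the naive state, went separate ways. Klf4 had 154 reads in WT at E7.5, 75 in WT at E8.5, 106 in KO1 and 287 in KO2, and Esrrb had 532, 37, 22 and 33 in the same order. Klf4 was above E8.5 WT in both KO libraries, by 1.03 in KO1, just past the threshold and with a counting interval (0.61 to 1.49) that reached below it, and by 1.92 in KO2, with a mean of 1.47 ± 0.63 (SD, n = 2). Esrrb stayed at the E8.5 WT level in both, with log2 changes of -0.19 and -0.14 and intervals that included 0, and was 17.1-fold and 16.5-fold below E7.5 WT.

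Dppa4 encodes a DNA-binding protein of pluripotent cells, and Lincenc1 is a noncoding RNA of naive embryonic stem cells. Dppa4 had 129 reads in WT at E7.5, 10 in WT at E8.5, 2 in KO1 and 1 in KO2. Lincenc1 had 93 reads in WT at E7.5, 49 in WT at E8.5, 3 in KO1 and 8 in KO2. Both genes were lower in each KO library than in each wild-type library. Relative to E8.5 WT, Dppa4 stood at a ratio of 0.293 in KO1, with an interval of the log2 ratio (-5.00 to 0.46) that included 0, and 0.101 in KO2 (-8.75 to -0.50). For Lincenc1 the ratios were 0.0896 in KO1 (-5.81 to -1.85) and 0.165 in KO2 (-3.89 to -1.51).

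**Figure D2:**
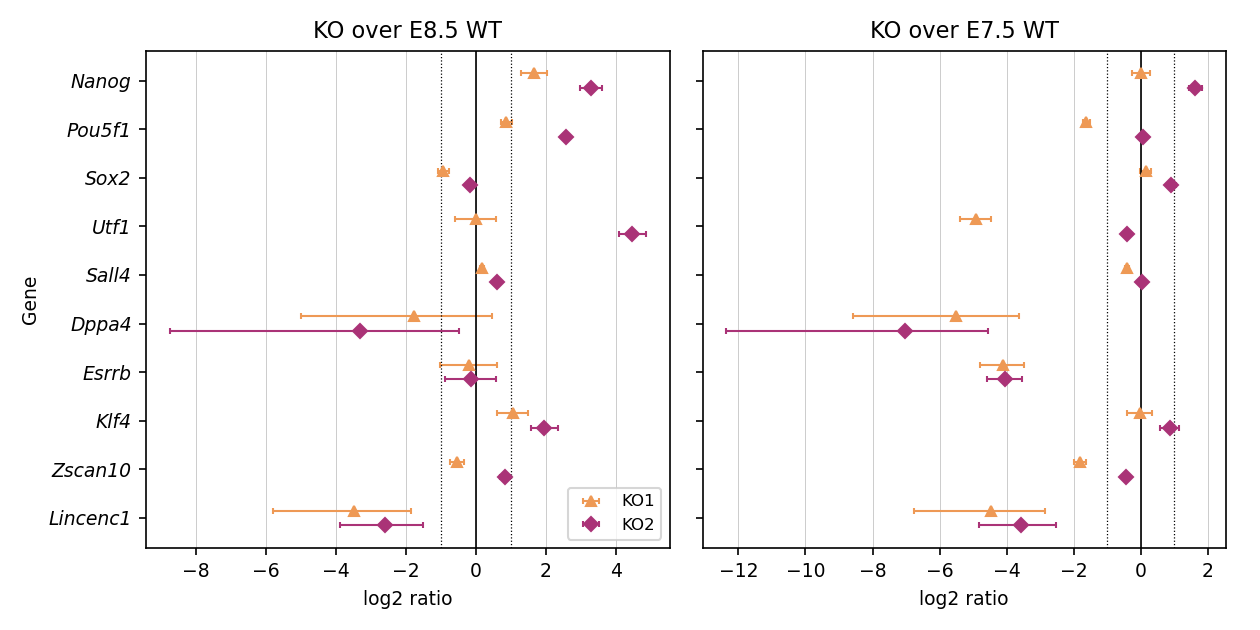
Log2 ratio of the normalized level in KO1 and in KO2 to that in E8.5 WT (left) and in E7.5 WT (right), with exact binomial 95% counting intervals and dotted lines at -1 and 1. Nanog and Klf4 lie beyond 1 against E8.5 WT in both KO libraries, Utf1 shows the widest gap between them, and Dppa4 and Lincenc1 lie left of -1 in both panels.

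Counted together, 2 of the 10 genes were above E8.5 WT in KO1 (Nanog and Klf4, with 4.97% of all genes called) and 4 in KO2 (Nanog, Pou5f1, Utf1 and Klf4, with 9.41%). Nanog and Klf4 were above it in both (3.44%), and Dppa4 and Lincenc1 were below it in both (1.79%). In KO1 the median change of the 10 was -0.10 and in KO2 it was 0.73, where all genes kept had -0.01 and 0.00. Against E7.5 WT, 6 of the 10 were lower in KO1 (7.45% of all genes), namely Pou5f1, Utf1, Dppa4, Esrrb, Zscan10 and Lincenc1, and Dppa4, Esrrb and Lincenc1 were lower in both KO libraries (2.7%). Dppa4 and Lincenc1 were below both wild-type stages in both KO libraries (0.361%), and none of the 10 was above both stages in both (0.75%). KO2 had the same 3 genes below E7.5 WT (4.06% of all genes), with a median change of -0.20 over the 10, against 0.07 for all genes kept.

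The KO libraries differed from each other by more than 1 on the log2 scale in 4 of the 10 genes (Nanog, Pou5f1, Utf1 and Zscan10), each higher in KO2, where 5.99% of all genes were called in that direction. None was called lower in KO2, where 4.89% of all genes were. The median of KO2 minus KO1 was 0.83, against 0.02 for all genes kept. Across the genes the SD of the KO pair ranged from 0.03 for Esrrb to 3.13 for Utf1 on the log2 scale.

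**Figure D3:**
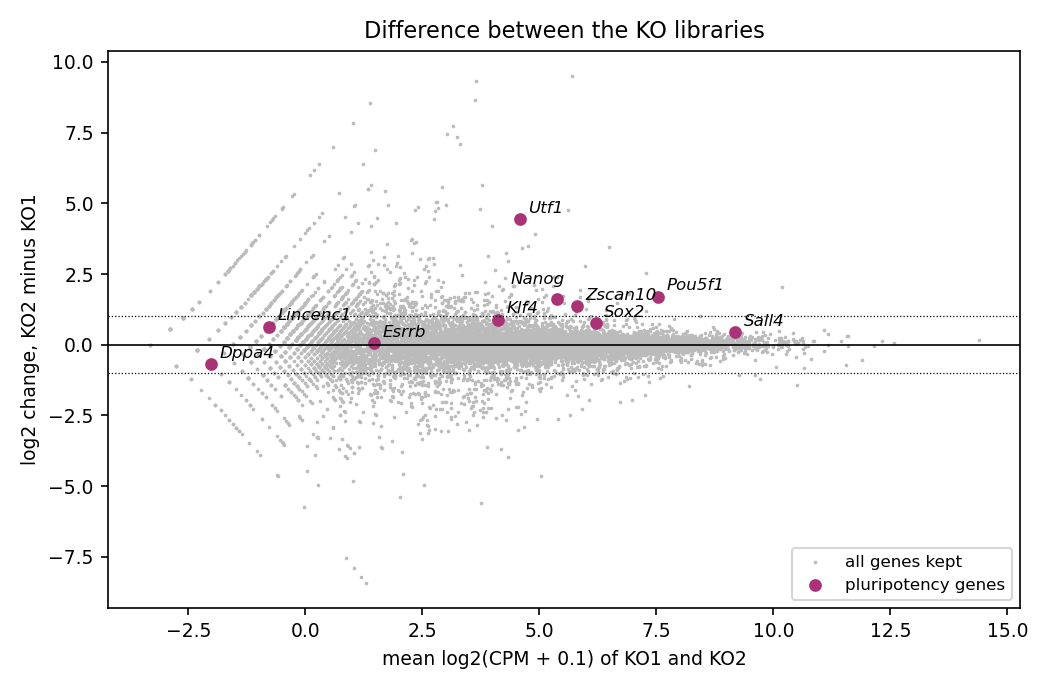
Each gray point is a gene kept, plotted by its mean level in the KO libraries, as log2(CPM + 0.1), and by the log2 change of KO2 minus KO1, with dotted lines at -1 and 1. Utf1 (4.43), Pou5f1 (1.70), Nanog (1.62) and Zscan10 (1.37) lie above the upper line, and the other 6 pluripotency genes lie between the lines.

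Only the KO group had replicates, so the tests against E8.5 WT took their spread from KO1 and KO2. The biological coefficient of variation was 0.275. The edgeR quasi-likelihood test of KO1 and KO2 against E8.5 WT gave no call after Benjamini-Hochberg adjustment (0 genes, 0%), whereas 1052 (7.31%) had an unadjusted p under 0.05. Of these, 4 were among the 10 (Nanog, Klf4, Dppa4 and Lincenc1), and their adjusted p in edgeR was 0.666. DESeq2 called 31 genes (0.215%), among them Nanog with an adjusted p of 0.0187, a log2 change of 2.69 ± 0.65 (SE) and a level above E8.5 WT in 2 of 2 KO libraries. The other 9 had an adjusted p of 1 in DESeq2. Against both wild-type libraries together, the difference between the wild-type stages also entered the spread (a coefficient of 0.359). There the edgeR count was also 0 (0%), and 565 genes (3.93%), Dppa4 and Lincenc1 among them, had an unadjusted p under 0.05. DESeq2 called 32 in that comparison (0.222%) and none of the 10. An exact permutation test of 2 libraries against 1 cannot give a p below 0.333.

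Other genes of the network were read from lists. Of 13 naive pluripotency genes, 11 were kept (Dppa3 and Tcl1 had at most 2 reads in any library). Of those kept, 6 were higher at E7.5 than at E8.5 in wild type, where 7.82% of all genes were called. Only Nr0b1, an orphan receptor that binds OCT4, was above E8.5 WT in both KO libraries, at 3 reads in WT at E8.5, 8 in KO1 and 12 in KO2, against 153 in E7.5 WT. Klf5, Zfp42, Nr0b1, Dppa5a and Prdm14 were below E7.5 WT in both KO libraries, where 2.7% of all genes were called. Zfp42, the marker gene also known as Rex1, had 145 reads in WT at E7.5, 12 in WT at E8.5, 6 in KO1 and 38 in KO2. The median of KO2 minus KO1 for this list was -0.03.

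All 19 formative and primed epiblast genes were kept, and 8 of them were above E8.5 WT in KO2, where 9.41% of all genes were called. The 8 were Fgf5, Otx2, Dnmt3b, Zic2, Cdh1, Epcam, L1td1 and Tdgf1. Fgf5, a growth factor that marks the epiblast after implantation, had 184 reads in WT at E7.5, 32 in WT at E8.5, 63 in KO1 and 994 in KO2, and was the only gene of the list above E8.5 WT in both KO libraries. Tdgf1, a Nodal co-receptor, had 300, 31, 6 and 1480 in that order. Dnmt3b, a de novo DNA methyltransferase, had 18206, 5529, 4802 and 28440. Cdh1 and Epcam, both epithelial adhesion genes, were under the threshold in KO1, with log2 changes of 0.56 and 0.50 against E8.5 WT. Dppa2, the partner of Dppa4, had 59, 7, 3 and 4 reads and was low in both. KO2 was above KO1 in 7 of the 19 (5.99% of all genes), and the median of KO2 minus KO1 was 0.62.

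The 5 repressors of the pluripotency network were kept in full. Nr6a1, the orphan receptor GCNF that silences Pou5f1 during gastrulation, had 2880 reads in WT at E7.5, 7311 in WT at E8.5, 3833 in KO1 and 3417 in KO2. Its level was below E8.5 WT in both KO libraries, with a log2 change of -0.38 in KO1 and -1.08 in KO2. Nr2f2, another orphan receptor, had 92, 369, 105 and 92 reads and was the only gene of the list called below E8.5 WT in both. Nr2f1 had 3, 74, 40 and 7 reads, and with Nr6a1 and Nr2f2 it made 3 genes below E8.5 WT in KO2, where 5.91% of all genes were called. Tcf7l1 and Mbd3 were not called against E8.5 WT in either KO library. The adjusted p of Nr6a1 and Nr2f2 was 0.666 in edgeR.

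**Figure D4:**
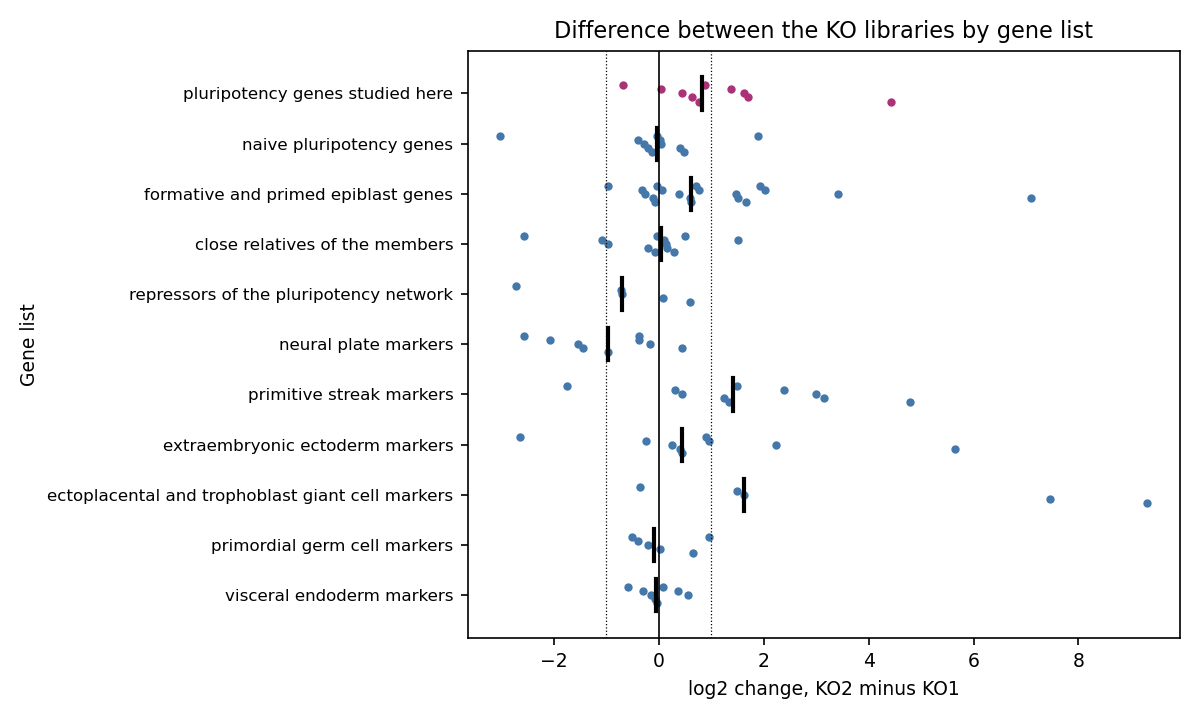
Each point is a gene kept, placed by its log2 change of KO2 minus KO1, in rows by gene list, with a black bar at the median and dotted lines at -1 and 1. The medians of the pluripotency genes (0.83) and the formative and primed genes (0.62) lie above 0, that of the primitive streak markers is 1.41, and that of the neural plate markers is -0.97.

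Markers of cell types that share these genes moved as well, and their part in the results was not tested. The 10 primitive streak markers summed to 590 CPM in WT at E7.5, 176 in WT at E8.5, 202 in KO1 and 621 in KO2. None was at 0. Of these, 7 were higher in KO2 than in KO1, where 5.99% of all genes were called. Among the 7 were Eomes (77 reads in KO1 and 3128 in KO2) and Mixl1 (41 and 542), whereas Tbx6 (215 and 91) was lower. T was not among the 7 and gave 325 CPM of the sum in WT at E7.5, 76.0 in WT at E8.5, 98.7 in KO1 and 122 in KO2. It alone of the list was called below E7.5 WT in both KO libraries (-1.72 and -1.41, with 2.7% of all genes called). Eomes gave 112 CPM of the sum in WT at E7.5 and 257 in KO2, so similar sums came from different genes. The neural plate markers, for the tissue in which Sox2 persists, had 9 of 10 kept and summed to 117 CPM in WT at E7.5, 248 in WT at E8.5, 199 in KO1 and 172 in KO2. Sox1, the defining marker, had 13, 533, 178 and 42 reads in that order, and none of the list was at 0. Sox1, Pax6 and Hesx1 were called below E8.5 WT in both KO libraries (1.79% of all genes) and none was called above it. Nes, which is also expressed outside the neural plate, gave 63.1 CPM of the sum in WT at E8.5, 82.2 in KO1 and 112 in KO2.

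The 9 extraembryonic ectoderm markers were all kept and summed to 654 CPM in WT at E7.5, 268 in WT at E8.5, 234 in KO1 and 235 in KO2, with none at 0. Elf5, the defining factor of that tissue, had 795 reads in WT at E7.5, 3 in WT at E8.5, 3 in KO1 and 10 in KO2. Other markers of the list went other ways, with Rhox6 at 9 reads in WT at E8.5, 54 in KO1 and 376 in KO2, Rhox9 at 3, 2 and 252 in that order, Tfap2c at 123, 118 and 334, and Cdx2 at 1326, 653 and 150. Rhox6 was the only marker of the list called above E8.5 WT in both KO libraries (adjusted p of 0.666 in edgeR and 0.00651 in DESeq2). Esrrb, which this tissue is also known to express, likewise had its level at E7.5 far above the other 3 libraries. Per the methods, extraembryonic tissue or yolk sac of the E8.5 embryos was used for genotyping. The 8 ectoplacental and trophoblast giant cell markers had 5 kept and summed to 276 CPM in WT at E7.5, 201 in WT at E8.5, 452 in KO1 and 868 in KO2. Hand1, which mesoderm also expresses, gave 181 CPM of the sum in WT at E8.5, 422 in KO1 and 331 in KO2. Prl3d1 had 3 reads in KO1 and 4156 in KO2, and Prl2c2 had 4 and 1400. The KO libraries thus differed in these trophoblast genes as well as in morphological stage. Tpbpa was at 0 in all libraries, Ctsq in all but KO2, Gcm1 in E7.5 WT and Prl2c2 in E8.5 WT. The primordial germ cell markers, for cells that also keep Pou5f1 and Nanog, had 6 of 8 kept and summed to 129 CPM in WT at E7.5, 129 in WT at E8.5, 159 in KO1 and 140 in KO2, with Dppa3 at 0 in KO1 and Nanos3 at 0 in E7.5 WT. Within these sums the wild-type stages differed in opposite directions for Tfap2c (879 reads at E7.5 and 123 at E8.5) and Kit (278 and 920). Ifitm3, at 97 reads in WT at E7.5, 143 in WT at E8.5, 285 in KO1 and 289 in KO2, was the only marker of the list called above both wild-type stages in both KO libraries (0.75% of all genes). Prdm1 went the other way, at 161, 345, 123 and 154 reads in that order. Its log2 change against E8.5 WT was -0.93 in KO1, under the threshold in size, and -1.14 in KO2.

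Genes with the most similar profile were sought among 11214 genes with a mean of at least 50 reads, by the Euclidean distance of log2 CPM centred over the 4 libraries. Nearest to Pou5f1 were Ndrg2 (distance 0.14), Vrtn, Dtx1, Ctla2a and Syngr1. Vrtn had 1834 reads in WT at E7.5, 328 in WT at E8.5, 500 in KO1 and 2259 in KO2. Nearest to Nanog were Serpinb9 (0.32), Wnt3, L1cam, Shroom1 and Lag3. Wnt3, a ligand of primitive streak formation, had 124, 46, 88 and 325 reads in that order. Nearest to Sox2 were Fam184a (0.20), Zxdb, Tle4, Il17rd and Zfp597. Likeness over 4 libraries is a description of these libraries.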

How the data were processed

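Whole-embryo RNA was sequenced after stranded mRNA library preparation (KAPA kit). The authors deposited raw counts per gene with no normalization. The submitters' processing notes list cutadapt 2.8, FastQC 0.11.7, HISAT2 2.1.0, SAMtools 1.9, featureCounts 2.0.0 and the mm10 build, and per the methods reads were counted strand-specifically over exons. The table had 0 unused sample columns.

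Groups came from the labels, and whether wild-type libraries were pools was not stated in the sources used here. Genes with at least 10 reads in at least 1 library were kept. TMM factors were computed over all genes with edgeR 4.0.16 (R 4.3.3), and log2 CPM used a prior count of 2. Calls used a log2 change of 1. Ratios between libraries were given exact Clopper-Pearson 95% intervals, and levels exact Poisson intervals. These intervals cover counting error only and hold no spread between embryos. Reads counted without unique molecular identifiers are not independent, so the intervals can be too narrow for counting error as well. Two-sided edgeR quasi-likelihood tests with Benjamini-Hochberg adjustment used all libraries, and DESeq2 1.42.0 was an alternative. The pipeline was tested on simulated data with less spread than these libraries and with the same changes in both KO libraries. That test therefore does not show how the pipeline performs on these data. Other settings tried were unscaled CPM, size factors from DESeq2, a minimum of 50 reads or none, a prior of 0.5, a threshold of 2 and either KO library alone.

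The genes named are the 10 pluripotency factors, Ddx6, genes of the lists, and for Pou5f1, Nanog and Sox2 the 5 nearest profiles. These factors and the lists were chosen with earlier results of these data known. Positions and exon lengths came from GENCODE and promoters from RefSeq, both of GRCm38, the assembly of mm10. Python 3.11.15 with matplotlib 3.10.9 drew the figures.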

Additional observations from a re-analysis of the deposited data

How the results depend on the processing

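Each wild-type stage had 1 library and the KO pair differed in morphological stage, so no result could be set against a spread between wild-type embryos. With a threshold of 2 on the log2 change, 4 genes were higher at E7.5 than at E8.5 in wild type (7 at a threshold of 1), 0 were above E8.5 WT in both KO libraries (2), 1 was below both wild-type stages (2) and 1 was higher in KO2 than in KO1 (4). The share of all genes was not computed at a threshold of 2, so those counts show only how the calls depend on it. Leaving out a KO library gave between 2 and 4 genes above E8.5 WT, with 4 in KO2 alone (9.41% of all genes). It gave between 3 and 6 below E7.5 WT, with 6 in KO1 alone (7.45% of all genes). DESeq2 called 1 gene against E8.5 WT, Nanog, where edgeR called 0, and its adjusted p in edgeR was 0.653 with the E8.5 libraries only and with a minimum of 50 reads. Under the other settings, 30 counts stayed within 1.5 times the reported one, as did 4 without a KO library. For mean changes of single genes, 94 values under other settings moved by less than the SD of the KO pair, and the other 6 were of Dppa4 and Esrrb. A minimum of 50 reads, or none, could not move these means or the counts of calls by log2 change. All of these genes passed either minimum, and scaling used all genes. Such values are included in the 94 and the 30 and do not show stability. The SD of the KO pair also holds its difference in morphological stage. It ranged from 0.03 for Esrrb to 3.13 for Utf1, so it was a wide yardstick for some genes. Leaving out a KO library turned the sign of the mean change for Utf1 and Zscan10 against E8.5 WT and for Pou5f1, Sall4 and Klf4 against E7.5 WT, since their values in KO1 and KO2 differ in sign. Plain CPM shifted the median of all genes in KO2 against E7.5 WT from 0.07 to 0.11. Dppa4 and Lincenc1 had at most 8 reads in the KO libraries, which limits the precision of their changes. No paired analysis was possible because the labels name no pairs of libraries and each wild-type stage had 1 library.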

Other observations

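Relatives of the pluripotency genes gave other patterns. Of 12 close relatives, all kept, none was above E8.5 WT in either KO library by the threshold, and Sox1 was below it in both. Sall1, Sall2 and Sall3, the paralogs of Sall4, differed from E8.5 WT by between -0.50 and 0.09 on the log2 scale in the KO libraries. Esrrg, a relative of Esrrb, had 5 reads in WT at E7.5, 53 in WT at E8.5, 35 in KO1 and 23 in KO2, the opposite order of stages to Esrrb. Pou3f1, the POU factor of the primed epiblast, had 924 reads in WT at E7.5, 359 in WT at E8.5, 165 in KO1 and 682 in KO2, and like Pou5f1 it was higher in KO2 than in KO1. Esrra differed from E8.5 WT by 0.11 in KO1 and 0.26 in KO2.

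The 8 visceral endoderm markers, for the outer layer that surrounds the epiblast, summed to 6920 CPM in WT at E7.5, 7167 in WT at E8.5, 4212 in KO1 and 4010 in KO2. Apob and Cubn gave 3110 and 2187 CPM of the sum in WT at E8.5, 1682 and 1667 in KO1, and 1521 and 1588 in KO2. Apoa1, Rbp4 and Apom were below E8.5 WT in both KO libraries (1.79% of all genes). Amn, Afp and Cubn were not called against E8.5 WT in either KO library, with Amn at log2 changes of -0.18 in KO1 and 0.19 in KO2. Apoa1 had 6739 reads in WT at E8.5, 1302 in KO1 and 2002 in KO2. For Apoa1 the adjusted p was 0.346 in edgeR and 1.92e-18 in DESeq2, which also called Rbp4 (5.63e-05), Apob (6.69e-06) and Ttr (0.0034), each with an adjusted p of 0.666 in edgeR. KO1 and KO2 differed little for these markers, with a median of KO2 minus KO1 of -0.06.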
